A study of Mus musculus with 75 samples.

Results

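Lung gene expression was compared between BLEO-IPF mice on day 28 and BLEO-IPF mice on day 7 after a single intratracheal dose of bleomycin. The comparison held 22 of the 75 mice sequenced, 12 on day 28 and 10 on day 7, chosen by the day given in the sample names. Of the 55536 genes counted, 16221 passed a filter on low counts and were tested. All mice were male C57BL/6JRj and 12 to 14 weeks old at dosing, and only dosed mice that had lost 5 to 17% of their body weight on day 6 were randomized to a day, so both groups describe mice with a mild to moderate acute response. The 10 control (CTRL) mice, which serve here as a shared reference, are saline mice by their sample names and untreated mice by the description of the treatment. Each mouse gave 1 RNA sequencing library of the inferior lobe. The paper describes rinsing the lungs with saline to collect lavage fluid before they were excised. Cells removed by that rinse are not in the libraries, and its effect on immune cell markers was not tested. The levels of *Sftpc*, *Ager* and *Scgb1a1*, markers of alveolar type 2 (AT2), alveolar type 1 (AT1) and club cells, were at least 6053, 1120 and 3238 CPM (read counts scaled to a common library size) in every mouse of both days, as fits lung tissue.

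Bleomycin breaks DNA. In the rodent lung it causes early epithelial death, a p53 response and inflammation, followed by proliferation, recruitment of monocyte-derived macrophages and deposition of matrix by activated fibroblasts. In mice the fibrosis later regresses in part. Day 7 is usually placed in the inflammatory phase and day 28 after the onset of established fibrosis. The question was how the content of the transcriptome differed between days that lie about equally far from CTRL.

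Total counts were 9718300 to 12329251 per library on day 7 and 9249037 to 13704519 on day 28. Some libraries held high levels of muscle or fat markers. Day 28 replicate 10 stood apart, with 2769 CPM summed over the skeletal muscle markers against 12.4 to 38.3 CPM in the other day 28 mice and 16.5 to 27.8 CPM on day 7. Its *Acta1*, skeletal muscle actin, reached 582 CPM against at most 0.660 CPM in the other mice of that day. Cardiac muscle markers summed to over 500 CPM in day 7 replicate 1 and in day 28 replicates 4, 8, 10 and 11, and fat markers did so in day 7 replicate 8 and day 28 replicate 10. Results are therefore given with all mice, and where the value moved also without day 28 replicate 10 or without the 6 mice just named, which leaves 8 mice on each day. The 6 are called mice with RNA of other tissues below, although the source of the cardiac markers was not tested. Fewer mice per day can by themselves lose calls, so why a call was lost without these 6 mice was not tested. Cardiac sums ran from 80.1 to 329 CPM in CTRL, and day 28 replicate 7, which was kept, had 396 CPM. The sums over marker lists and *Acta1* are CPM of the plain library size, whereas CPM of the other genes use TMM factors. On the TMM scale the cardiac sum of day 7 replicate 1 was 493 CPM, just under the limit of 500 CPM, and the same limit named all the other libraries.

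The days did not differ detectably in how far each mouse lay from CTRL. Distance was the root mean square difference in log2 CPM from the CTRL mean over the 16221 genes. It was 0.612 ± 0.0639 (SD, n = 10) on day 7 and 0.668 ± 0.192 (SD, n = 12) on day 28. For the CTRL mice, each measured from the mean of the other CTRL mice, it was 0.293 ± 0.0149 (SD, n = 10). The difference between the days of 0.0559 had a two-sided permutation p of 0.389, and without replicate 10 it was 0.0475 with p = 0.482. A p of this size does not show that the distances were equal. A similar distance of the days from CTRL was the starting point of the comparison, so the test adds no separate evidence for it.

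The spread among mice was wider on day 28, which is given as a description without a test. Day 7 distances ran from 0.496 to 0.699 (median 0.610), and day 28 distances from 0.426 to 0.968 (median 0.702). Day 28 mice thus lay on both sides of the whole day 7 range. The median distance between a pair of mice was 0.464 within day 7, 0.635 within day 28 (0.607 without replicate 10) and 0.631 between the days, so a day 28 mouse was about as far from another day 28 mouse as from a day 7 mouse. For 63.3% of genes the SD of log2 CPM was larger on day 28 (61.8% without replicate 10). The mean profiles of the days lay 0.526 (day 7) and 0.524 (day 28) from CTRL and 0.363 from each other.

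**Figure D1:**
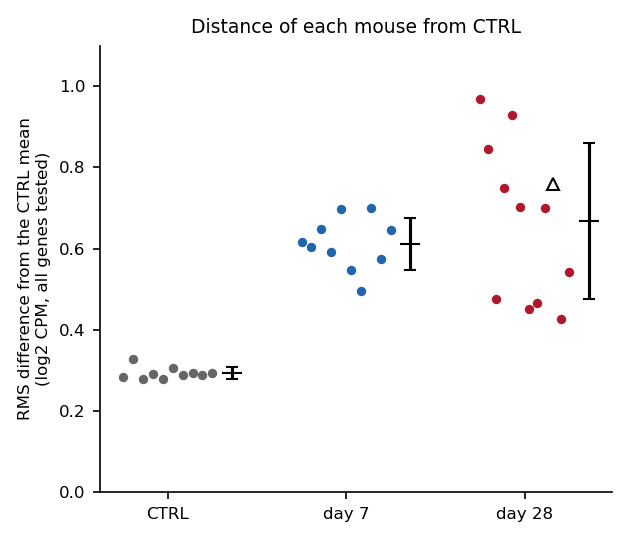
Root mean square difference in log2 CPM from the CTRL mean (vertical axis) for each CTRL, day 7 and day 28 mouse. For a CTRL mouse the mean is that of the other CTRL mice. Bars give the mean and SD and the open triangle is day 28 replicate 10. Day 7 mice lie between 0.496 and 0.699, while day 28 mice extend from 0.426 to 0.968.

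In the fit across all genes, 2903 genes were differentially expressed (DEGs, adjusted p under 0.05, edgeR quasi-likelihood test with Benjamini-Hochberg adjustment), or 17.9% of the genes tested. Of these, 1438 (8.87%) were higher and 1465 (9.03%) lower on day 28, and the median log2 fold change over all genes was 0.00. These shares are the background for every count of list members between the days given below. Most differences were small, with an absolute log2 fold change under 0.5 for 1644 of the DEGs. Among the 439 DEGs that differed by at least 1 on the log2 scale, 341 were higher and 98 lower on day 28 with all mice. Of the 178 DEGs that were higher by at least 2, 145 were DEGs also without replicate 10. Without replicate 10 there were 2751 DEGs (17.0%), 1316 (8.12%) higher and 1435 (8.86%) lower, and 2510 were DEGs in both fits. A fit of only these 22 mice gave 1770 DEGs (11.8%), 914 (6.08%) higher and 856 (5.7%) lower, and the comparison without the 6 mice with RNA of other tissues gave 2250 (13.9%), 1117 (6.92%) higher and 1133 (7.02%) lower. Both days differed from the same CTRL mice in a larger share of genes, 45.8% on day 7 (24.8% higher, 21.0% lower) and 43.3% on day 28 (24.1% higher, 19.2% lower). These are whole-lobe libraries, so fewer cells of a type and less RNA per cell cannot be told apart in any result that follows.

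Complete separation of the days was rare. For 40 genes (0.247%) every day 28 mouse lay on one side of every day 7 mouse, 19 (0.117%) higher and 21 (0.129%) lower. Among the higher genes was *C1qtnf3* (chr15:10952332-10980150, GRCm38), which encodes a secreted protein of the C1q and TNF-related family. Its lowest, median and highest levels were 0.352, 1.3 and 2.11 CPM on day 7, 3.35, 8.65 and 92.7 CPM on day 28 and 2.54, 3.91 and 5.01 CPM in CTRL. All day 7 mice were below all CTRL mice, and all but 1 of the day 28 mice were above them. The log2 fold change between the days was 4.13 ± 0.55 (SE, adjusted p = 9.72e-08). *Prox1* (chr1:190118035-190170714), the transcription factor that specifies lymphatic endothelium, had 2.30, 4.34 and 6.92 CPM on day 7 and 7.90, 10.3 and 26.3 CPM on day 28. Here day 7 resembled CTRL (2.62, 4.01 and 4.64 CPM), and the day 28 mice stood above both groups, with a log2 fold change of 1.63 ± 0.22 (adjusted p = 1.44e-07). *Sox17* (chr1:4490931-4497354), an endothelial transcription factor, had 31.2, 47.9 and 68.3 CPM on day 7, 71.3, 94.6 and 126 CPM on day 28 and 57.6, 73.8 and 89.3 CPM in CTRL. It lay below CTRL on day 7 and above it on day 28, in both cases past the threshold, and differed by 0.97 ± 0.10 between the days (adjusted p = 1.31e-10).

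Other genes with all day 28 mice above all day 7 mice were *Fam181b* (log2 fold change 1.6), *Tcim* (1.1), *Abca1* (0.89), the cholesterol efflux transporter, *Tmem136* (0.88), *Pkn3* (0.85), a protein kinase, *Tmem44* (0.83) and *Nxpe4* (0.79). *Pkn3*, *Tmem44* and *Nxpe4* were lower than CTRL on day 7 (−0.85, −0.78 and −0.73) and within 0.07 of it on day 28. Each of these genes had an adjusted p under 0.05 with and without replicate 10.

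The largest fall among the separated genes was in *Retnla* (chr16:48842551-48844461), which encodes a resistin-like protein made by alternatively activated macrophages and airway epithelium. Levels were 458, 865 and 1294 CPM on day 7, 29.8, 165 and 296 CPM on day 28 and 20.02, 32.1 and 47.9 CPM in CTRL. Every day 7 mouse exceeded every day 28 mouse, and the lowest day 28 mice were within the CTRL range. The log2 fold change was −2.62 ± 0.36 (adjusted p = 2.54e-07). *Sprr1a* (chr3:92483952-92485895), a small proline-rich protein of stressed squamous epithelium, went from 14.0, 22.6 and 31.7 CPM on day 7 to 1.2, 3.49 and 13.7 CPM on day 28, against at most 1.04 CPM in CTRL. All BLEO-IPF mice of both days were above CTRL, and day 28 was lower by a log2 fold change of −2.26 ± 0.29 (adjusted p = 3.75e-08). *Cxcl17*, a mucosal chemokine, was at 35.4, 48.6 and 67.4 CPM on day 7 and at 12.7, 21.9 and 35.0 CPM on day 28, and the day 28 mice spanned the CTRL range (17.0, 22.7 and 25.7 CPM), with −1.15 ± 0.13 (adjusted p = 1.39e-09). The remaining separated genes named by the rule were *Lrtm2* (−1.13), *Mthfd1l* (−0.99), an enzyme of mitochondrial folate metabolism, *Mybl1* (−0.92), a transcription factor of the Myb family, *St6galnac5* (−0.91), a sialyltransferase, *Gsto1* (−0.88), a glutathione transferase, and the p53 targets *Cdkn1a* and *Ccng1*. Genes annotated on the opposite strand held more counts than *St6galnac5* itself, and between 17.1% and 40.1% as many as *Nxpe4*, *Lrtm2*, *Gsto1* and *Pkn3*, so these values are uncertain if the counting ignored strand.

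**Figure D2:**
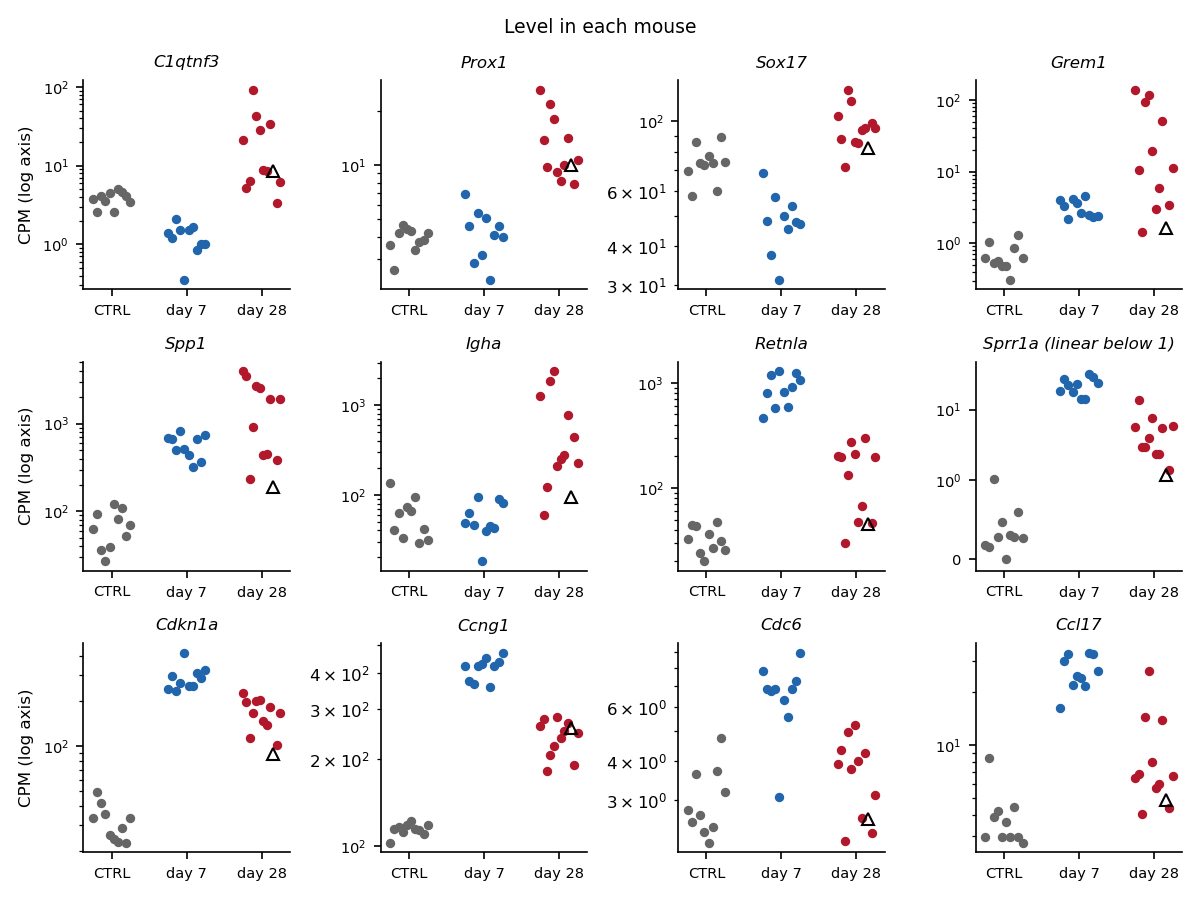
CPM of 12 genes in each CTRL, day 7 and day 28 mouse on log axes (linear below 1 for *Sprr1a*); open triangles mark day 28 replicate 10. *C1qtnf3*, *Prox1* and *Sox17* are higher and *Retnla*, *Sprr1a*, *Cdkn1a* and *Ccng1* lower in all day 28 than in all day 7 mice, whereas *Grem1*, *Spp1*, *Igha*, *Cdc6* and *Ccl17* overlap.

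Part of the p53 target genes fell. p53 is activated by DNA damage and switches on genes of cell cycle arrest and apoptosis. Of 22 targets tested, 10 were lower on day 28 and none higher (background 9.03% and 8.87% of all genes), and their median log2 fold change was −0.23, against 0.88 for day 7 and 0.58 for day 28, each relative to CTRL. *Cdkn1a* (chr17:29090976-29100727), the cell cycle inhibitor p21, was at 234, 278 and 425 CPM on day 7, 88.4, 168 and 227 CPM on day 28 and 22.6, 30.8 and 49.3 CPM in CTRL. The days were fully separated, and both lay above CTRL. It differed by −0.84 ± 0.14 (adjusted p = 7.80e-06). *Ccng1* (chr11:40748552-40755311), cyclin G1, was at 358, 421 and 470 CPM on day 7, 182, 249 and 281 CPM on day 28 and 102, 114 and 122 CPM in CTRL, without overlap among the 3 groups, and differed by −0.79 ± 0.08 (adjusted p = 4.20e-12). *Gdf15*, a stress-induced cytokine, fell by 1.2 (adjusted p = 4.04e-07) and was still 2.18 above CTRL on the log2 scale on day 28. Without replicate 10, 9 of the targets were lower, and without the 6 mice with RNA of other tissues 8 were lower and 1 higher.

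DNA replication genes were lower on day 28 as a whole group. These genes encode the MCM helicase, its loading factors, polymerases and the enzymes of nucleotide supply, and many are switched on by E2F factors at the entry into S phase. All 20 tested were DEGs and lower on day 28, with a median of −0.49 and summed levels of 470 to 641 CPM on day 7, 318 to 499 CPM on day 28 and 321 to 367 CPM in CTRL. The sums of the days overlapped, and some day 28 mice lay within the CTRL range. All 20 were higher than CTRL on day 7 and 15 still were on day 28. *Cdc6*, a loader of the MCM helicase, was at 3.08, 6.83 and 8.96 CPM on day 7 and 2.21, 3.85 and 5.24 CPM on day 28 (−0.87 ± 0.19, adjusted p = 6.49e-04), against 2.19, 2.74 and 4.74 CPM in CTRL. *Gins1*, of the replicative helicase complex, fell by 0.78 (adjusted p = 0.00207), *Rrm2*, a subunit of ribonucleotide reductase, by 0.75 (adjusted p = 0.00326) and *Mcm2* by 0.47 (adjusted p = 0.00169). All 20 were DEGs without replicate 10 and 17 in the fit of the 22 mice, but without the 6 mice that held RNA of other tissues only 10 were, and *Gins1*, *Rrm2* and *Mcm2* were not among them (adjusted p = 0.0873, 0.136 and 0.0931).

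The promoters of 16 of the 20 replication genes could be read from RefSeq (GRCm38.p6, 250 bases before the start). E2F-type letters (TTTCCCGC, TTTCGCGC, TTTGCCGC or TTTGGCGC, either strand) stood in 5 of the 16 genes, or 31.2%, against 583 of 27025 genes with an entry, or 2.16%. The match is a description of letters and not of binding. Promoters with overlapping matches are those of *Mcm5* and *Mcm6*, subunits of the MCM helicase that were chosen for display after their values were seen. They are shown with the matched letters in capitals, 5′ to 3′ on the strand of the gene.
Mcm5 promoter, chr8:75109259-75109508, plus strand: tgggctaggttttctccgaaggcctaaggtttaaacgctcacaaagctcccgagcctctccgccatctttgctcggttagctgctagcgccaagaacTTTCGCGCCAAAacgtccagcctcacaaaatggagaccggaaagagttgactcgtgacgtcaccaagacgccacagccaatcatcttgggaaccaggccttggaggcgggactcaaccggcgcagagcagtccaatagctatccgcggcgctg
Mcm6 promoter, chr1:128359706-128359955, minus strand: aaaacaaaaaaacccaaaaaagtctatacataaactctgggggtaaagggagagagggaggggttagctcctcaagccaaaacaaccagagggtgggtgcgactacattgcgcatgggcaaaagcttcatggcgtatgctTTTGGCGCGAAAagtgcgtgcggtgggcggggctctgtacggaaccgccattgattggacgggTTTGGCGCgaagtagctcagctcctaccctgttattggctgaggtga

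In the *Mcm5* promoter 1 run of capitals holds 2 matches that overlap on opposite strands. In the *Mcm6* promoter the first run does the same and the second is a separate match. *Mcm5* was at 28.6, 36.3 and 45.2 CPM on day 7 and 13.3, 23.1 and 33.4 CPM on day 28 (−0.68 ± 0.14, adjusted p = 2.44e-04). *Mcm6* was at 53.2, 68.4 and 74.8 CPM on day 7 and 35.2, 52.5 and 62 CPM on day 28 (−0.42 ± 0.09, adjusted p = 4.65e-04). Both genes overlapped between the days and were lower in the day 28 mice on average.

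Mitosis genes behaved less clearly than replication genes. Only 1 of 20 was a DEG, *Birc5*, survivin, lower by 0.74 on the log2 scale (log2 fold change −0.74, adjusted p = 0.0101), although all 20 fold changes were below 0 and their median was −0.41. Relative to CTRL all 20 were higher on day 7 (median 1.86) and on day 28 (median 1.48). *Mki67*, the proliferation marker Ki-67, was at 40.1, 68.1 and 91.5 CPM on day 7 and 22.6, 52 and 97.6 CPM on day 28 (−0.27 ± 0.22, adjusted p = 0.423), and both its lowest and its highest value among the 22 mice were on day 28. Without the 6 mice with RNA of other tissues the call of *Birc5* was lost (adjusted p = 0.201). E2F-type letters stood in the promoter of 1 of the 17 mitosis genes with an entry.

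Part of the genes of sterol metabolism were lower on day 28. The list of sterol and fatty acid synthesis genes holds targets of SREBP factors, which are activated when cells run short of sterols. Of 20 genes tested, 10 were lower and 1 higher, with a median of −0.31. The 10 lower genes all act in sterol metabolism, and none of the 6 genes of fatty acid synthesis and desaturation was called, a split that was chosen after the values were seen. *Sqle*, squalene epoxidase, was at 70.9, 85.6 and 138 CPM on day 7, 39.9, 57.4 and 74.1 CPM on day 28 and 38.3, 50.1 and 61.6 CPM in CTRL. A single day 28 mouse reached the day 7 range (−0.67 ± 0.10, adjusted p = 2.17e-06). *Idi1*, isopentenyl diphosphate isomerase, fell by 0.65 (adjusted p = 6.13e-04). Both were above CTRL on day 7 (0.82 and 0.72) and within 0.16 of it on day 28. The summed level of the list moved the other way from its median, from 4861 to 7072 CPM (median 5360) on day 7 to 3969 to 8207 CPM (median 6054) on day 28. *Srebf1*, which encodes the SREBP-1 factor, was the gene called higher (0.21, adjusted p = 0.0324), and that call was lost without replicate 10 (adjusted p = 0.111) and on leaving out any of day 7 replicates 1, 2, 5, 6 and 10. *Hmgcs1*, hydroxymethylglutaryl-CoA synthase, was lower by a log2 fold change of −0.28 (adjusted p = 0.0154), a call lost in the fit of the 22 mice (adjusted p = 0.0567). Its promoter held the only match to the sterol regulatory letters TCACNCCAC, either strand, among the 12 list genes with an entry, against 331 of 27025 genes, or 1.22%, and is shown with the match in capitals.
Hmgcs1 promoter, chr13:119690101-119690350, plus strand: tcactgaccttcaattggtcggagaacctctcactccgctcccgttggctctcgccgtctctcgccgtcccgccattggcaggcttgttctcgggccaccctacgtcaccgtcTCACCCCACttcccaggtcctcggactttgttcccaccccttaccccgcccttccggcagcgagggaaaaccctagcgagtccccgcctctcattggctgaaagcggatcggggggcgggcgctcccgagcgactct

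NRF2 target genes, which serve the antioxidant response, gave 6 of 15 lower and none higher on day 28 (median −0.18). *Osgin1*, an oxidative stress response gene, was at 20.3, 27.3 and 41.7 CPM on day 7 and 13.5, 18.5 and 22.6 CPM on day 28 (−0.58 ± 0.12, adjusted p = 5.22e-04). *Gclc*, the catalytic subunit of glutathione synthesis, fell by 0.46 (adjusted p = 0.00100) from a day 7 level 0.88 above CTRL. *Gsta4*, a glutathione transferase, had −0.43 (adjusted p = 0.0102), which was lost in the fit of the 22 mice (adjusted p = 0.0698). Without replicate 10, 5 of the 15 were lower, and 4 were in the fit of the 22 mice and without the 6 mice with RNA of other tissues. Letters TGACNNNGC of the antioxidant response element stood in 3 of the 12 genes with a promoter entry, against 11.5% of all genes with an entry.

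Markers of transitional alveolar epithelium, the keratin 8-high state between AT2 and AT1 cells, were lower on day 28 in 9 cases. Of 16 tested, none was higher, with a median of −0.61, while the medians relative to CTRL were 1.02 on day 7 and 0.96 on day 28, so the middle of the list stayed high. *Krt8* was at 220, 292 and 392 CPM on day 7, 112, 169 and 277 CPM on day 28 and 119, 146 and 175 CPM in CTRL. Several day 28 mice lay in the CTRL range and none reached the day 7 median (−0.66 ± 0.11, adjusted p = 2.42e-05). *Cldn4*, a tight junction protein, had a log2 fold change of −1.03 (adjusted p = 0.0125) and *Tnip3*, an inhibitor of NF-κB signalling, one of −0.89 (adjusted p = 0.00365). Both calls were lost without the 6 mice with RNA of other tissues (adjusted p = 0.156 and 0.0803), when 6 of the 16 markers were lower and 2 higher.

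Few markers of mature alveolar cells were called. Of 15 AT2 markers, 1 was higher and none lower, namely *Lpcat1*, an enzyme of surfactant lipid synthesis (0.43, adjusted p = 0.0117). *Sftpc*, surfactant protein C, was at 9125, 11538 and 18613 CPM on day 7 and 6053, 13183 and 17942 CPM on day 28 (0.09 ± 0.18, adjusted p = 0.783). Of 14 AT1 markers, 2 were lower, *Scnn1a*, a sodium channel subunit (−0.53, adjusted p = 0.00189), and *Pdpn*, podoplanin (−0.37, adjusted p = 0.00748), of which *Pdpn* was not called in the fit of the 22 mice (adjusted p = 0.0792). *Ager* had −0.10 ± 0.12 (adjusted p = 0.599).

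Part of the ciliated cell markers were lower on day 28. Of 15 tested, 7 were lower and none higher (median −0.49), and relative to CTRL 5 were lower on day 7 and all 15 on day 28. *Foxj1*, the master regulator of motile cilia, was at 67, 98.4 and 116 CPM on day 7, 18.9, 58.1 and 96.2 CPM on day 28 and 70.1, 90.8 and 105 CPM in CTRL. Day 28 mice ranged from far below both groups to within them (−0.70 ± 0.17, adjusted p = 0.00166). *Tekt4* and *Rsph1*, of the ciliary axoneme, had −0.74 (adjusted p = 0.00419) and −0.70 (adjusted p = 0.00325). The count depended on the mice included, with 3 lower in the fit of the 22 mice, where *Tekt4* was not called (adjusted p = 0.0591), and 12 lower without the 6 mice with RNA of other tissues. Of 12 club and secretory cell markers, *Scgb3a2* alone was called, lower by −0.88 (adjusted p = 0.00807, and 0.0646 in the fit of the 22 mice), while without the 6 mice with RNA of other tissues 3 were lower. *Scgb1a1* had −0.34 ± 0.22 (adjusted p = 0.295).

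Inflammatory chemokines fell in part. Of 21 tested, 7 were lower and 1 higher (median −0.36, and −0.62 without replicate 10), and relative to CTRL 16 were higher on each day, with medians of 1.75 on day 7 and 1.14 on day 28. *Ccl17*, which attracts CCR4-bearing T cells, was at 16.2, 25.6 and 33.6 CPM on day 7, 4.04, 6.54 and 26.3 CPM on day 28 and 2.76, 3.30 and 8.43 CPM in CTRL. All but 1 of the day 28 mice were below all day 7 mice (−1.57 ± 0.27, adjusted p = 1.44e-05). The monocyte attractants *Ccl7* and *Ccl2* had −1.45 (adjusted p = 0.00725) and −1.30 (adjusted p = 0.0351). *Ccl2* was at 6.53, 11.5 and 18.6 CPM on day 7 and 0.674, 2.34 and 17.4 CPM on day 28, and its call was lost without replicate 10 (adjusted p = 0.0535). *Cxcl12*, a chemokine of stromal cells, was the member that rose (0.77 ± 0.18, adjusted p = 0.00124). Without the 6 mice with RNA of other tissues, 3 were lower and 1 higher.

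Monocyte and recruited macrophage markers were called at a share near that of all genes (17.9%), with 3 of 16 lower and 1 higher, so the members are described singly. *Vcan*, versican, was at 37.4, 64.7 and 103 CPM on day 7 and 13.2, 33.2 and 59.4 CPM on day 28 (−1.05 ± 0.23, adjusted p = 8.34e-04). *F13a1*, a coagulation factor subunit of monocytes, and *Ccr2*, the receptor for *Ccl2*, had −0.82 (adjusted p = 0.0127) and −0.47 (adjusted p = 0.0242). *Ms4a7*, a macrophage membrane protein, was higher (0.85, adjusted p = 0.0117), and was not called in the fit of the 22 mice (adjusted p = 0.0529). The 3 lower calls were lost without the 6 mice with RNA of other tissues (adjusted p = 0.0501 for *Vcan*, 0.0903 for *F13a1* and 0.0976 for *Ccr2*). *Ly6c2*, the defining monocyte gene of the list, had 0.12 ± 0.16 (adjusted p = 0.649). Of 20 interferon-stimulated genes, 3 were lower and none higher (median −0.08), with 5 lower in the fit of the 22 mice. They were *Cxcl10* (−1.27, adjusted p = 0.00359), *Irf7* (−0.57, adjusted p = 0.00773) and *Usp18* (−0.35, adjusted p = 0.0469, and 0.0809 without replicate 10), and *Ifit1* had −0.30 (adjusted p = 0.253). Opposite-strand genes held more counts than *Cxcl10* and *Irf7* themselves. Of 16 complement genes, 3 were lower and 1 was in the fit of the 22 mice. They included *C7* (−0.84, adjusted p = 8.60e-04), a component of the membrane attack complex, and *C1ra*, a protease of the classical pathway (−0.21, adjusted p = 0.0136), which was not called in the fit of the 22 mice (adjusted p = 0.0844).

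Some macrophage markers of the alveolar and lipid-associated kinds were higher on day 28. Lipid-associated macrophages accumulate in fibrotic lung and express matrix-degrading and lipid-handling proteins. Of 18 such markers, 7 were higher and none lower (median 0.44, and 8 higher without replicate 10), and the medians relative to CTRL were 1.11 on day 7 and 1.58 on day 28. *Spp1* (chr5:104435118-104441050), osteopontin, was at 320, 585 and 827 CPM on day 7, 192, 1404 and 3980 CPM on day 28 and 27, 66.8 and 122 CPM in CTRL. On day 28, 7 mice exceeded every day 7 mouse and 2 lay below every day 7 mouse (1.48 ± 0.45, adjusted p = 0.0141). *Apoe*, apolipoprotein E, was higher by 0.93 (adjusted p = 0.00170) and *Ctsk*, cathepsin K, by 0.88 (adjusted p = 0.0107). Of 16 alveolar macrophage markers, 5 were higher and none lower (median 0.51), and without replicate 10 there were 5 higher and 1 lower (median 0.35). The higher genes included *Atp6v0d2*, a proton pump subunit (0.87, adjusted p = 0.00128), *Olr1*, an oxidized LDL receptor (0.86, adjusted p = 0.00460), and *Pparg*, the regulator of alveolar macrophage identity (0.73, adjusted p = 5.59e-05). *Siglecf*, their defining surface marker, had 0.27 ± 0.18 (adjusted p = 0.302). *Pparg* is also a fat gene, and it was 0.58 higher without replicate 10 (adjusted p = 0.000309). *Atp6v0d2* stands in both macrophage lists, so its call is counted in each.

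Apart from muscle, the list with the highest median was that of plasma cell and immunoglobulin markers, with 9 of 18 higher, 1 lower and a median of 1.32. Plasma cells secrete antibodies, and *Jchain* joins the IgA and IgM that reach mucosal surfaces. *Igha* (chr12:113254830-113260236), the constant region of IgA, was at 18, 46.7 and 95.6 CPM on day 7, 58.8, 266 and 2423 CPM on day 28 and 29.1, 52.3 and 137 CPM in CTRL. Day 7 overlapped CTRL, and 10 of the 12 day 28 mice were above all day 7 mice (3.56 ± 0.61, adjusted p = 1.79e-05). *Jchain* was at 3.52, 14.5 and 54.2 CPM on day 7 and 14.9, 148 and 538 CPM on day 28 (3.38 ± 0.57, adjusted p = 1.34e-05). *Ighg1*, the IgG1 constant region, was at 0.461, 1.24 and 6.14 CPM on day 7 and 1.3, 7.31 and 136 CPM on day 28 (3.48 ± 0.87, adjusted p = 0.00292). The lower member, *Xbp1*, a secretory pathway factor of many cell types, had −0.21 (adjusted p = 0.0209, and 0.0796 in the fit of the 22 mice). In replicate 10 the summed level of 5509 CPM was the second highest on that day, while its *Igha* was 95.1 CPM. Without this mouse 8 markers were higher. Immunoglobulin genes resemble each other in sequence, so reads may have been divided unevenly among them.

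Lymphocyte lists other than plasma cells showed few calls between the days. *Cd22* was the one B cell marker of 15 that was called (0.59, adjusted p = 0.00943), and not without replicate 10 (adjusted p = 0.061). That mouse had 769 CPM of summed B cell markers, against 80.9 to 435 CPM in the other day 28 mice. The B cell median was 0.31 with it and 0.04 without it. Relative to CTRL and with all mice, 10 of the 15 B cell markers were lower on day 7 (median −0.79) and 1 on day 28 (median −0.38). NK and cytotoxic markers were lower than CTRL in 10 of 13 cases on day 7 (median −0.82) and in 9 on day 28 (median −0.98). No marker of these 2 lists was called higher than CTRL on either day. None of 20 T cell markers (median 0.25, *Cd3d* 0.28), 13 NK and cytotoxic markers (median −0.13, *Ncr1* −0.20), 12 neutrophil markers (median −0.04, *S100a8* 0.24), 6 mast cell and basophil markers (median 0.14, which turned to −0.19 without replicate 10) or 10 MHC class II genes (median 0.27) was called. Without replicate 10 the neutrophil median was −0.08. Of 13 dendritic cell markers, *Clec9a*, of cross-presenting cells, was higher (0.73, adjusted p = 0.0152) and *Clec10a*, of type 2 cells, lower (−0.96, adjusted p = 6.17e-04). *Clec9a* overlaps a gene on its own strand with 78.2% as many counts and is uncertain.

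Myofibroblast and activated fibroblast markers split into 7 higher and 5 lower of 17 (median 0.28). Without replicate 10, 7 were higher and 4 lower, and the median was 0.18. *Grem1* (chr2:113746164-113758646), a BMP antagonist of fibrotic fibroblasts, was at 2.19, 2.98 and 4.51 CPM on day 7, 1.44, 11.0 and 140 CPM on day 28 and 0.307, 0.589 and 1.28 CPM in CTRL. On day 28, 8 mice were above and 2 below all day 7 mice (3.59 ± 0.71, adjusted p = 1.75e-04). *Cthrc1*, a marker of matrix-producing fibroblasts, was at 2.50, 5.16 and 8.95 CPM on day 7 and 3.91, 7.27 and 75.5 CPM on day 28 (1.86 ± 0.43, adjusted p = 0.00123). *Lrrc15*, found on activated fibroblasts, was at 0, 0.624 and 1.11 CPM on day 7 and 0.280, 0.724 and 14.0 CPM on day 28 (2.58 ± 0.72, adjusted p = 0.00748). The medians of *Cthrc1* and *Lrrc15* lay within the range of the other day, and the upper mice of day 28 stood far above all day 7 mice.

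The 5 lower members included contractile genes and an injury receptor. *Tnfrsf12a*, the TWEAK receptor, was at 53.9, 66.2 and 159 CPM on day 7 and 20.4, 37.6 and 85.2 CPM on day 28 (−0.89 ± 0.21, adjusted p = 0.00177), a call lost without the 6 mice with RNA of other tissues (adjusted p = 0.068). *Actg2*, smooth muscle gamma-actin, had −0.67 (adjusted p = 0.00207) and *Cnn1*, calponin, −0.58 (adjusted p = 0.00621). *Acta2*, smooth muscle alpha-actin, was at 248, 311 and 463 CPM on day 7 and 172, 228 and 410 CPM on day 28 (−0.26 ± 0.15, adjusted p = 0.243). Among 14 fibroblast markers, *Mfap5*, a microfibril protein (0.72, adjusted p = 0.00109), and *Pdgfrb*, a PDGF receptor of mural cells (0.44, adjusted p = 0.00594), were higher and *Pi16*, of adventitial fibroblasts, lower (−0.83, adjusted p = 0.00301), while *Pdgfra* had −0.34 (adjusted p = 0.0503). These 3 calls were a share near that of all genes (17.9%). Without the 6 mice with RNA of other tissues, 3 fibroblast markers were lower.

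Most fibrillar collagens were raised over CTRL on both days. Of 15 fibrillar and associated collagens, 12 were higher than CTRL on day 7 (median 0.87) and 14 on day 28 (median 1.43). Between the days 1 was higher and 2 lower (median 0.31), a share near that of all genes (17.9%), or 2 higher and 2 lower without replicate 10. *Col1a1*, the alpha 1 chain of collagen I, was at 692, 944 and 1525 CPM on day 7, 398, 888 and 3274 CPM on day 28 and 233, 325 and 443 CPM in CTRL. The day 28 mice spread well beyond day 7 on both sides, and the difference was 0.25 ± 0.31 (adjusted p = 0.610). *Col1a2* and *Col3a1* had 0.27 ± 0.24 and 0.08 ± 0.18 (adjusted p = 0.460 and 0.803). *Col8a1*, a short-chain collagen, was higher (1.17 ± 0.27, adjusted p = 0.00120). *Col6a2* and *Col6a1*, chains of the microfibrillar collagen VI, were lower (−0.39 and −0.38, adjusted p = 0.00934 and 0.00324), though not without the 6 mice with RNA of other tissues (adjusted p = 0.164 and 0.0711), when 4 collagens were higher and none lower.

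Basement membrane genes were higher in 5 of 19 cases and lower in none (median 0.26, background 8.87% and 9.03% of all genes). In the fit of the 22 mice 3 were higher, and 8 without the 6 mice with RNA of other tissues. They included *Lama3*, a laminin chain (0.61, adjusted p = 0.00983), and *Col4a4* and *Col4a3*, of the alveolar collagen IV network (0.43 and 0.40, adjusted p = 0.00383 and 0.0338), with *Col4a3* not called in the fit of the 22 mice (adjusted p = 0.0759). *Col4a1* was above CTRL on both days (0.88 and 1.15) and had 0.26 ± 0.16 between them (adjusted p = 0.248). Of 20 matrix crosslinking and remodelling genes, *Loxl2*, a lysyl oxidase (0.62, adjusted p = 0.0247, and 0.0542 in the fit of the 22 mice), *Mmp2*, gelatinase A (0.60, adjusted p = 6.78e-04), and *Timp2*, its inhibitor (0.25, adjusted p = 2.50e-04), were higher. *Timp1*, the inducible inhibitor of metalloproteinases, was at 65.3, 101 and 150 CPM on day 7 and 7.82, 32.7 and 150 CPM on day 28 (−1.16 ± 0.41, adjusted p = 0.0358), a call that was lost without replicate 10 (adjusted p = 0.0606). *Mmp3*, stromelysin 1, had −0.65 (adjusted p = 0.00676, and 0.0807 without the 6 mice with RNA of other tissues). With all mice 3 remodelling genes were higher and 2 lower, against 8.87% and 9.03% of all genes. Without replicate 10, 4 remodelling genes were higher and 1 lower, and without those 6 mice 7 were higher and none lower.

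The 25 TGF-beta signalling genes that the study's text names, a list chosen on these samples, gave 1 higher and 1 lower, with a median of 0.00. Without replicate 10 there were 2 higher and 1 lower, and without the 6 mice with RNA of other tissues 4 higher and 1 lower. *Tgfb1* itself had −0.02 ± 0.09 (adjusted p = 0.920) and was 0.24 and 0.23 above CTRL on the days. *Itgb5*, an integrin subunit, was higher (0.37, adjusted p = 0.0192, and 0.0794 in the fit of the 22 mice), and *Tgfbr3*, betaglycan, lower (−0.43, adjusted p = 0.00278). None of 20 ER chaperone and unfolded protein response genes was called (median 0.00).

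The same day 28 mice had the highest values of *Grem1*, *Col1a1* and *Igha*, genes chosen after their values were seen. Replicates 1, 4 and 5 had the highest *Grem1* (140, 92.5 and 116 CPM), *Col1a1* (2675, 2402 and 3274 CPM) and *Igha* (1274, 1891 and 2423 CPM). Replicates 3, 7 and 11 had *Grem1* of 1.44, 2.98 and 3.42 CPM and *Col1a1* of 712, 591 and 503 CPM, which did not exceed the day 7 ranges. The order did not extend to whole lists, since replicate 1 (2794 CPM) lay below replicates 4, 5, 6 and 10 in summed plasma cell and immunoglobulin markers. *Spp1* followed the same mice only in part, at 914 CPM in replicate 4 and 1894 CPM in replicate 12.

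Capillary endothelial markers were mixed as a list, and none of them separated the days completely. Of 19 capillary markers, 3 were higher and 1 lower (median −0.01, and −0.03 without replicate 10), a share near that of all genes (17.9%). Relative to CTRL, 13 were lower on day 7 and 12 on day 28. *Aplnr*, the apelin receptor of general capillaries, was at 10.0, 29.7 and 49.4 CPM on day 7, 25.8, 63.1 and 107 CPM on day 28 and 67.8, 80.8 and 116 CPM in CTRL. Day 7 was fully below CTRL, and day 28 overlapped both (1.07 ± 0.25, adjusted p = 0.00127). *Sema3c*, a guidance ligand, was 0.77 higher (adjusted p = 3.27e-04) and level with CTRL on day 28 (0.02). *Apln*, the apelin ligand of aerocytes, was higher by 0.66 (adjusted p = 0.0207, and 0.0518 in the fit of the 22 mice), and *Fibin* lower (−0.64, adjusted p = 0.0193). *Gpihbp1*, the lipoprotein lipase anchor of capillaries, had −0.18 (adjusted p = 0.350).

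*Krt5* (chr15:101707070-101712898), the keratin of airway basal cells that stood in the mesothelial list, was the one call among 10 of its genes. It was at 0 CPM in the median day 7 mouse, at most 0.0923 CPM on day 7 and 0.0955 CPM in CTRL, and at 0, 0.554 and 10.8 CPM on day 28. In 9 of 12 day 28 mice it exceeded all day 7 mice (adjusted p = 5.05e-04), at low counts on which the fitted fold change depends, so none is given.

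Circadian clock genes were called at a share not far from that of all genes (17.9%), with 3 of 18 lower and 1 higher. Without replicate 10, 4 were lower and none higher, and without the 6 mice with RNA of other tissues 6 were lower and 1 higher. Relative to CTRL, 12 of the 18 were lower and 3 higher on day 7 (median −0.54). On day 28, 14 were lower and 4 higher than CTRL (median −0.74), against 21.0% and 19.2% of all genes lower on the respective days. The hour of tissue collection is not given in the sources used here, and its part was not tested. *Cry1*, a repressor of the clock, was at 23.1, 41.8 and 50.5 CPM on day 7 and 9.44, 17.8 and 24.3 CPM on day 28 (−1.10 ± 0.16, adjusted p = 9.49e-07). *Per2* had −0.84 (adjusted p = 4.29e-04), *Nr1d1* 0.70 (adjusted p = 0.0357, and 0.068 without replicate 10) and *Arntl* 0.69 (adjusted p = 0.0607). Of 16 immediate early genes, which respond to handling of tissue as well as to injury, 4 were lower and 1 higher. They included *Fosl1* (−1.71, adjusted p = 0.00548), *Junb* (−0.48, adjusted p = 0.0115), *Zfp36* (−0.35, adjusted p = 0.00558) and *Nr4a1* (0.84, adjusted p = 0.0315). Without the 6 mice with RNA of other tissues, the 3 named lower genes were not called (adjusted p = 0.0607, 0.21 and 0.0672), and neither was *Nr4a1* in the fit of the 22 mice (adjusted p = 0.0867). *Fosl1* and *Junb* are uncertain for reads of opposite-strand genes. None of 7 mitochondrially encoded genes was called (median −0.03, and −0.14 without replicate 10).

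**Figure D3:**
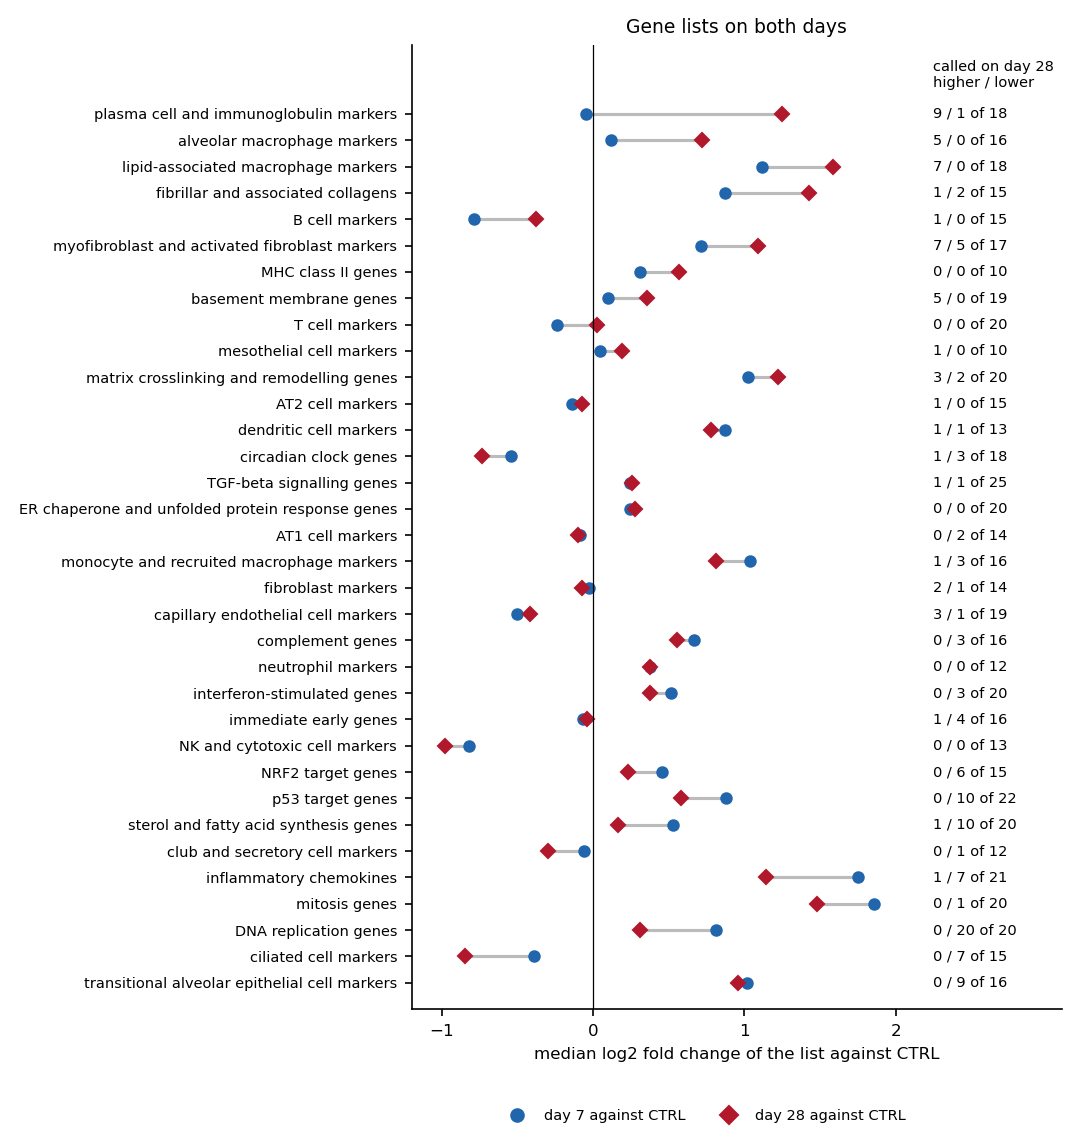
Median log2 fold change of each gene list against CTRL on day 7 (circles) and day 28 (diamonds), ordered by the median difference between the days, with the number of members called higher or lower on day 28 than on day 7 at the right. Plasma cell and immunoglobulin markers (9 higher of 18) lie at one end and DNA replication genes (20 lower of 20), ciliated and transitional markers near the other; lists of other tissues are not drawn.

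Some DEGs between the days were past the threshold above CTRL on one day and below it on the other. The contrasts share the CTRL mice, and each one's own log2 fold changes are given side by side for the genes with the largest differences. *C1qtnf3* was −1.59 against CTRL on day 7 and 2.54 on day 28. *Slc26a10* (−1.45 and 1.6, between the days 3.05, adjusted p = 3.40e-07) and *Gm4640* (−1.85 and 1.37, between the days 3.23, adjusted p = 2.18e-05) followed the same order, *Gm4640* with at most 2.09 CPM in any mouse. In the other direction were *Entpd3*, an ectonucleotidase (0.56 and −0.47), *Tspan4*, a tetraspanin (0.47 and −0.29), and *Fbxo36* (0.40 and −0.26). Opposite-strand genes held more counts than *Slc26a10*, *Fbxo36* and the muscle gene *Atp2a1* themselves, and between 27.3% and 72.6% as many as *Tspan4*, *Srebf1*, *Nr1d1* and *Col4a1*.

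The calls of muscle and fat markers changed with the libraries included. Of 10 skeletal muscle markers, 8 were higher on day 28 with all mice, 1 without replicate 10 and none without the 6 mice with RNA of other tissues, when 1 was lower. *Atp2a1*, the calcium pump of fast muscle, had 0.437, 1.02 and 348 CPM on day 28 and 0.0880, 0.395 and 2.03 CPM on day 7, with a log2 fold change of 5.64 that became 1.26 without replicate 10 (adjusted p = 0.0728). *Tnnt3*, fast troponin T, went from 3.36 to −0.60 without that mouse, and *Ckm*, muscle creatine kinase, from 4.51 to 1.88 (adjusted p = 0.0218). Of 13 cardiac markers, 12 were higher with all mice, 7 without replicate 10 and 2 without the 6 mice. *Nppa*, atrial natriuretic peptide, reached 717 CPM in 1 day 28 mouse with a median of 0 CPM. *Sln*, *Csrp3* and *Myh6*, also of heart muscle, had 3.11, 2.91 and 2.65, and without replicate 10 they had 1.95, 2.31 and 2.06, of which *Csrp3* alone was called (adjusted p = 0.0216). The fat gene *Cox8b* was the one call of 7 (1.70), and was lost without replicate 10 (adjusted p = 0.271). The count of lower fat markers was 3 without that mouse and 3 without the 6 mice. Of 6 thymus markers, 1 was higher, *Cd1d1* (0.57, adjusted p = 0.00160), and 1 lower. None of 7 red blood cell markers was called (median 0.38), and 2 of 8 nerve and Schwann cell markers were higher, *Egfl8* (0.81, adjusted p = 0.00203), with more counts on the opposite strand than its own, and *Scn7a* (0.72, adjusted p = 0.00109). The part of these tissues in the results on lung genes was not tested beyond the counts given without those mice.

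**Figure D4:**
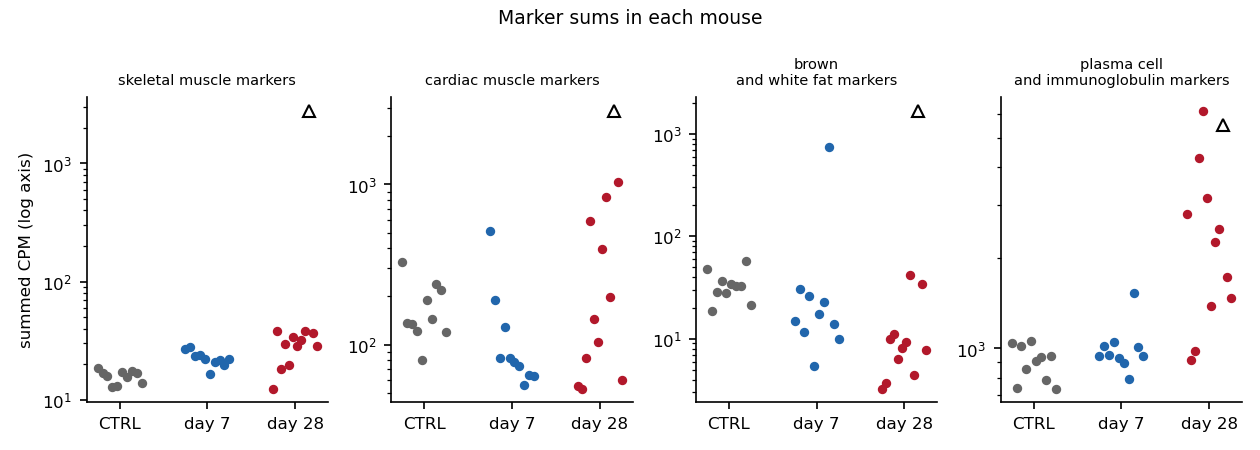
Summed CPM of skeletal muscle, cardiac muscle, fat and plasma cell and immunoglobulin markers in each mouse on log axes; the open triangle is day 28 replicate 10. That mouse has 2769 CPM of skeletal muscle markers against at most 38.3 CPM in the other day 28 mice, and 5509 CPM of plasma cell and immunoglobulin markers, which lie between 912 and 6135 CPM on day 28.

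Set among the other days, the lists that parted day 7 from day 28 had different courses. Medians over a list of the difference in mean log2 CPM from CTRL are descriptive. For DNA replication genes they were 0.80, 0.87, 0.73, 0.30, 0.11 and 0.06 over the 6 days from day 7 to day 42, so the level on day 28 was part of a decline after day 14. Sterol and fatty acid synthesis genes stood at 0.52 on day 7 and between 0.14 and 0.18 on every later day. Plasma cell and immunoglobulin markers went from −0.11 on day 7 to 0.60 on day 28 and 0.99 on day 35, with a lower last value of 0.39. Ciliated cell markers, listed in the same order as the replication genes, stood at −0.41, −1.025, −1.085, −1.02, −0.23 and −0.64. Their low level of day 28 was thus already present by day 14, and the last value lay below that of day 35. The mean distance from CTRL was larger on day 14 (0.813) and day 21 (0.700) than on either of the days compared, so the days compared lie on either side of the days with the largest mean distance.

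**Figure D5:**
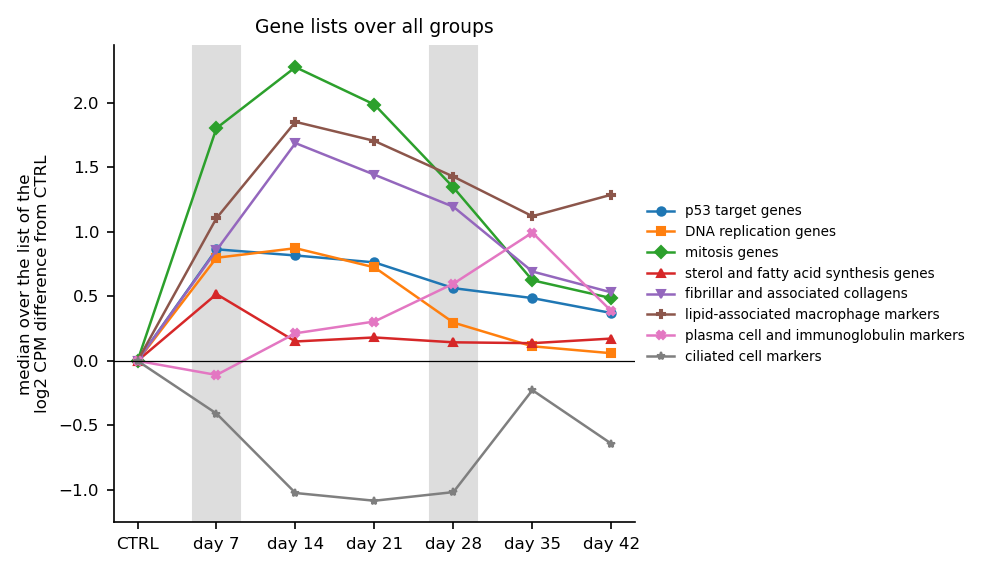
Median over each of 8 gene lists of the difference in mean log2 CPM from CTRL (vertical axis) by group, with day 7 and day 28 shaded. DNA replication genes decline after day 14, from 0.87 to 0.30 on day 28, while plasma cell and immunoglobulin markers rise from −0.11 on day 7 to 0.99 on day 35 and are at 0.39 on day 42.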

How the data were processed

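RNA was purified from the inferior lobe of each mouse, made into directional NEBNext libraries and sequenced single-end. The authors aligned reads with STAR 2.7.0f to GRCm38 (mm10) with Ensembl release 96 annotation, per the labels, the methods and the submitters' processing notes, and deposited raw counts per gene for 75 mice without normalization. The counting program and its handling of strand and of multi-mapping reads are not given in the sources used here. Reads that were multi-mapping or assigned without strand would blur overlapping genes and families of similar sequence. All 55536 gene identifiers were in the annotation, and every row named a gene.

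From the counts, 1 edgeR 4.0.16 fit (R 4.3.3, quasi-likelihood F test, TMM factors, filterByExpr, 7 group means, no covariate) over all 75 mice gave each contrast, adjusted by Benjamini-Hochberg over 16221 genes at 0.05. SE is the absolute log2 fold change over the square root of F. CPM of genes used TMM factors, and log2 CPM a prior count of 2, while sums over marker lists and the muscle marker levels behind the limit of 500 CPM used plain library sizes. Distances were compared by a two-sided permutation test with 100000 resamples. Libraries of a group differed beyond sampling noise (chi-square per degree of freedom at least 3.88), so none was counted as a repeat. Replicates were separate mice. Genes named were, per direction, the 10 largest changes among symbol-bearing DEGs, with and without day 28 replicate 10, whose days did not overlap and whose mean log2 CPM exceeded 1, up to 3 called members and the first marker of each of 42 lists, up to 3 genes on opposite sides of CTRL, the study's collagen and TGF-beta genes and the muscle markers. Members and lists were chosen with earlier results of these data known. Lists are described by counts and medians, without a set test. Some list members entered these counts but are not reported here by name. The lists covered p53, NRF2, mitosis, replication, interferon, complement, chemokine, matrix, TGF-beta, unfolded protein response, sterol, clock and MHC class II genes, markers of lung, immune and neighbouring tissues, and signs of RNA quality. Alternatives were DESeq2 1.42.0, library size and upper quartile scaling, other filters, only the 22 mice, a replicate block and each mouse left out. Leaving out mice with over 500 CPM of muscle or fat markers was chosen after seeing the data. The code was tested on simulated data, and summaries and plots came from pandas 2.3.3, scipy 1.17.1, matplotlib 3.10.9 and numpy 2.4.6 under Python 3.11.15.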

Additional observations from a re-analysis of the deposited data

Results flagged for a closer look

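Within each group of 10 mice, a value was singled out when its gap to the nearest other mouse took a larger part of the group's range than Dixon's 95% critical value. Chance alone singles out about 1 in 20 groups of values, and 282 were examined, of which 23 in day 7 and 8 in CTRL were singled out, in addition to 1 for the distance. The day 28 group was too large for this rule.

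Day 7 replicate 5 stood apart most often. It was highest for *Cdkn1a* (425 CPM), *Mmp3* (115), *Gclc* (521), *Sqle* (138), *Hmgcs1* (261), *Scnn1a* (969.6), *Pdgfra* (702), *Tnfrsf12a* (159) and *Fosl1* (5.63), all in CPM, and lowest for *Tmem136* (1.58 CPM) and *Tmem44* (20.1 CPM). Without this mouse the comparison gave 2239 DEGs. Day 7 replicate 1, whose cardiac marker sum was the highest of its day, was highest for *Atp2a1* (2.03 CPM), *Ckm* (4.34), *Nppa* (1.02), *Sln* (8.21), *Csrp3* (9.23) and *Myh6* (183), and also for *Fam181b* (3.32) and *Scn7a* (517). The other day 7 values were *Mthfd1l* (29.9 CPM) and *Jchain* (54.2 CPM) in replicate 8, *Sftpc* (18613 CPM) in replicate 3 and *Ctsk* (123 CPM) in replicate 9.

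In CTRL, *Abca1* was 198 CPM in replicate 10, *Ifit1* 31.7 CPM in replicate 5, *Ccl17* 8.43 CPM and *Cnn1* 28.7 CPM in replicate 2, *Ighg1* 5.39 CPM and *Atp2a1* 3.77 CPM in replicate 1, *Nppa* 0.382 CPM in replicate 8 and *Gm4640* 1.21 CPM in replicate 4. The distance of 1 CTRL mouse from the mean of the other CTRL mice, 0.329, lay apart from the rest.

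For 23 genes the effects of day 7 and day 28 against CTRL were both past the threshold and had opposite signs, and the difference between the days was itself past the threshold. Of these, 10 are named here. Their difference was 4.13 for *C1qtnf3*, 3.23 for *Gm4640*, 3.05 for *Slc26a10*, 1.60 for *Fam181b*, 1.10 for *Tcim*, 0.97 for *Sox17*, 0.88 for *Tmem136*, −1.04 for *Entpd3*, −0.76 for *Tspan4* and −0.66 for *Fbxo36* on the log2 scale.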

How the results depend on the processing

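The number of DEGs between the days stayed within 1.5 times of 2903 under DESeq2 (3068), both other scalings, both other filters, the omission of 6 mice with RNA of other tissues (2250) and each single omission (2239 without day 7 replicate 5 to 3133 without day 7 replicate 1). It fell to 1770 (914 higher, 856 lower) in the fit of only the 22 mice, of which 1726 were DEGs in both fits. Requiring an absolute log2 fold change of at least 0.5 left 1259 (704 higher, 555 lower), and 3036 and 3247 for day 7 and day 28 against CTRL. The difference in distance stayed between 0.00941 (genes with at least 10 counts in every mouse) and 0.0779 among these settings, apart from 0.339 (permutation p = 0.124) over the 500 most variable genes, and missed the threshold in all of them.

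Of the 121 called genes named, 68 kept their call under every alternative and omission. Signs turned for *Mki67* (0.068) and *Tgfb1* (0.080) without the mice with RNA of other tissues, for *Tgfb1* (−0.061 to 0.025) and *Col3a1* (−0.049 to 0.145) among single omissions, and for *Tnnt3* (−0.587 with DESeq2, −0.879 without those mice and −0.605 to 3.48 among single omissions). None of the first 3 was called. Calls that single mice decided, with adjusted p on their omission, were *Apln* (0.0539, day 28 replicate 7), *Ccr2* (0.0502, day 7 replicate 4), *Fibin* (0.0507, day 7 replicate 7), *Hmgcs1* (0.0689, day 7 replicate 5), *Xbp1* (0.0821 and 0.0586, day 7 replicates 5 and 8), *Itgb5* (0.0523, day 7 replicate 5, and 0.0546 and 0.0779, day 28 replicates 4 and 5), *Loxl2* (0.0509, day 7 replicate 5, and 0.0692 and 0.0576, day 28 replicates 1 and 5), *Col4a3* (0.0693 and 0.0802, day 7 replicates 2 and 3, and 0.0798 and 0.0609, day 28 replicates 1 and 2) and *Nr4a1* (0.0588 and 0.0517, day 7 replicates 5 and 9, and 0.204 and 0.101, day 28 replicates 2 and 3). *Ccl2*, *Timp1*, *Nr1d1*, *Srebf1* and *Usp18* were each lost in 6 or more such refits, at adjusted p up to 0.0685, 0.0670, 0.0862, 0.111 and 0.115. The causes were not tested.

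Replicate numbers are shared by the days but come from separate mice. Same-numbered mice correlated between −0.239 and 0.321 (median 0.0176) in their deviations from the group means, 4 of 10 pairs above 0.1, and 2 mice matched their own number best, so the numbers were not taken as pairs. With the replicate block there were 2990 DEGs (1451 higher, 1539 lower). Depth limits genes near 1 CPM, such as *Krt5*, *Lrrc15* and *Gm4640*, most.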
